A study of Mus musculus with 12 samples.

Results

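The clustered protocadherin genes of the mouse lie in 3 arrays, alpha, beta and gamma, next to each other on chromosome 18. The CpGs described here are those in a window of chromosome 18 from 37.08 to 38.01 Mb of the mm9 build. A CpG was a member when, with the reads of both strands summed, it had at least 10 reads in at least 2 libraries of each group. The rule kept 729 CpGs of the 1157487 autosomal CpGs that passed the same coverage rule, while 646 of the 1375 CpGs listed in the window in any library did not meet it. They fall into 118 tiles of 1 kb, and 82 tiles with at least 3 members hold 673 of them.

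Clustered protocadherins are cell adhesion proteins best known from the nervous system, where different combinations of them on the surface of single neurons mark each neuron as distinct from others. In the alpha and gamma arrays each variable first exon carries its own promoter and is spliced to exons shared by the whole array, whereas each beta gene is a single-exon gene. A neuron uses a few of the promoters, chosen largely at random, and methylation of a variable promoter goes with its silence and with loss of binding by the insulator protein CTCF. The C-type genes at the end of the alpha and gamma arrays are used more uniformly in neurons. In the RefSeq gene table (GRCm38.p6, used for names and gene order alone), the alpha array runs over 14 genes, Pcdha1 to Pcdhac2. The beta array runs over 22 genes, Pcdhb1 to Pcdhb22, and the gamma array over 22, Pcdhga1 to Pcdhgc5, of which 1 is a pseudogene. Slc25a2, Taf7 and Gm8242 lie between the beta and gamma arrays.

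The study measured methylation by reduced representation bisulfite sequencing, in which DNA is cut with MspI at CCGG sites, fragments of a limited size are kept, and unmethylated cytosines read as thymine after bisulfite treatment. The cells were LSK cells (Lin- Sca1+ cKit+), the marrow fraction that holds haematopoietic stem cells and early progenitors, sorted from bone marrow of C57BL/6 mice at 6 months of age. There were 4 groups of 3 libraries: leukemic Tet2(-/-) Nras(G12D) mice, nonleukemic Tet2(-/-) Nras(G12D) mice, Tet2(-/-) mice and Nras(G12D) mice. Tet2 encodes an enzyme that oxidises 5-methylcytosine on the way to its removal, and Nras(G12D) is an activated form of a Ras GTPase that signals through the MAPK pathway. The alleles were conditional and specific to haematopoietic tissue, and the Cre driver is not given in the sources used here. The leukemic libraries were known by the prefix L of their titles, and their sample descriptions carry the letters BMT, which the labels do not spell out. Wild-type libraries, named in the study's design, were not analysed here, so no group lacks a mutation. Whether replicates came from separate animals is not in the labels, and a p-value here is set against the variation among the libraries of a group, which may be technical. Coverage summed over the listed CpG cytosines was 96300485 to 199736369 per library, and 52742 to 91649 in the window. A read over several CpGs counts at each of them, so these sums are not numbers of reads. The median coverage of a member CpG was 57.5 to 100 reads across libraries. Reads carried no molecular identifiers, so copies made by PCR were counted, and the identity of the sorted cells was not checked, since the files hold no expression values.

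Much of the protocadherin window was partly methylated in these cells. Of the 729 CpGs, 332 (45.5%) had a mean level between 20 and 80%, 195 (26.7%) lay under 20% and 202 (27.7%) lay over 80%. On the autosomes outside the window only 7.83% of CpGs were between 20 and 80%, while 58.4% lay under 20% and 33.8% over 80%. The remainder of chromosome 18 was like the other autosomes, with 7.26% of its 34242 CpGs partly methylated. By tile the contrast was similar: 52 of 82 window tiles (63.4%) averaged 20 to 80%, against 14.1% of the 105525 tiles outside. The intermediate level of a tile was mostly that of its single CpGs: in the 52 partly methylated tiles, 282 of 389 CpGs were themselves between 20 and 80%, 43 were under 20% and 64 over 80%.

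**Figure D1:**
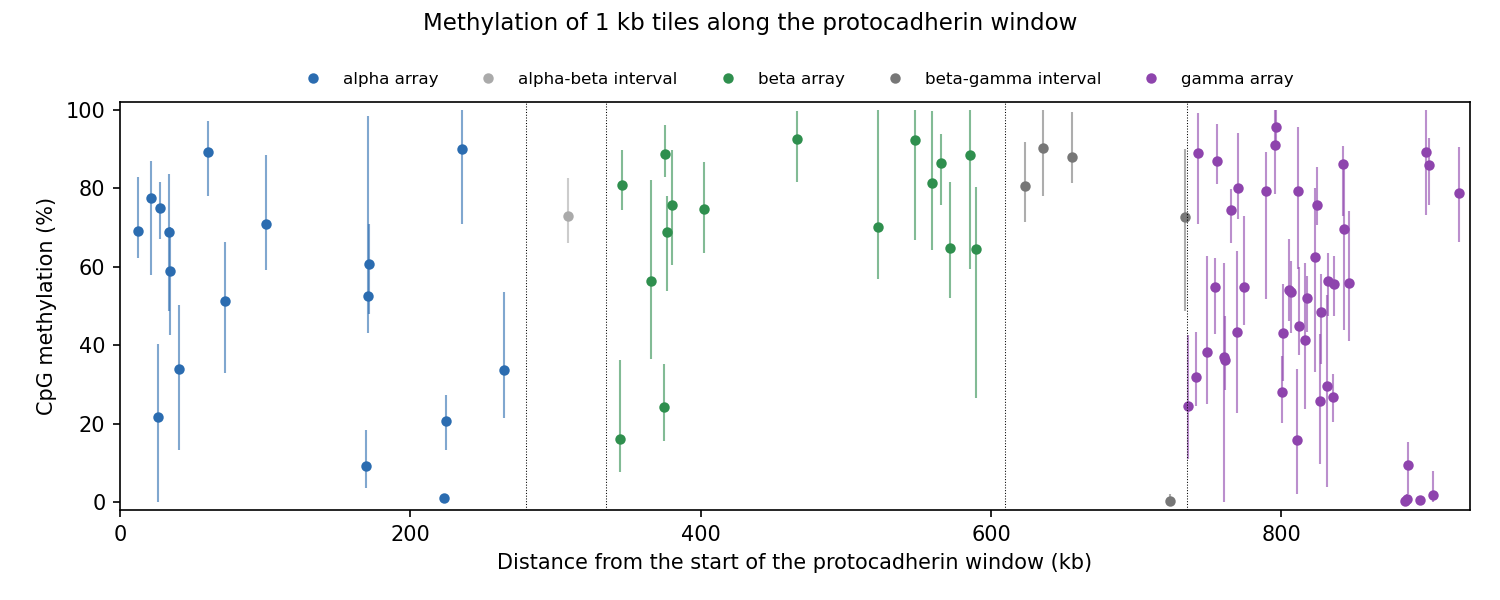
Mean CpG methylation (%) of the 82 tiles along the protocadherin window, by distance from the window's start in kb. Points are means over 12 libraries, vertical lines run from the lowest to the highest library, and dotted lines part the segments. Partly methylated tiles fill the alpha array and the first zone of the gamma array, and tiles near 0 stand in the last zone of both arrays.

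The arrays differed in level. The median CpG was at 40.1% in the alpha array (150 CpGs), 77.0% in the beta array (112 CpGs) and 47.9% in the gamma array (393 CpGs). The gamma array had the largest share of partly methylated CpGs, 217 of 393 (55.2%), followed by the beta array with 52 of 112 (46.4%) and the alpha array with 57 of 150 (38%). In the interval between the beta and gamma arrays, 6 of 62 CpGs (9.68%) were partly methylated, 32 were under 20% and 24 over 80%. Array bounds were round positions set from general knowledge of the gene order, since no annotation of the mm9 build was used here. The array of a tile close to a bound is therefore uncertain, and no tile was assigned to a gene.

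In the alpha array 13 of 17 tiles were partly methylated. They included 9 of the 10 tiles of its first zone, between 37092000 and 37180999. Its last zone, from 37249000 to 37344999, was parted from the first by the widest gap between its tiles and held the CpG-dense unmethylated tiles. Tile chr18:37303000-37303999, with 25 CpGs, had 2.13, 2.18 and 0.0754% methylation in leukemic double mutant libraries and 1.15, 1.33 and 1.10% in nonleukemic double mutant libraries. The same tile had 1.14, 0.509 and 0.289% in Tet2 knockout libraries and 1.01, 0.564 and 2.11% in Nras G12D libraries. It was unmethylated in all 12 libraries, and its groups overlapped. The next tile, chr18:37304000-37304999 with 21 CpGs, averaged 20.6%, between 13.3 and 27.2% in single libraries. Tile chr18:37249000-37249999, with 18 CpGs, averaged 9.33%. The highest alpha tile, chr18:37315000-37315999 with 4 CpGs, averaged 90.1% and ranged from 71.0 to 100%.

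The beta array was the most methylated: its tiles had a median of 75.2%, against 58.9% for alpha tiles and 53.5% for gamma tiles. Of its 16 tiles, 8 were partly methylated. Of these, 2 had an adjacent tile above 80%, and the other 6 had no adjacent tile with enough CpGs. The lowest, chr18:37424000-37424999 with 8 CpGs, averaged 16.1%, and its neighbour chr18:37425000-37425999 with 11 CpGs averaged 80.8%. This step was between 47.4 and 80.5 points in single libraries and had the same direction in all 12. A like step of 64.5 points parted chr18:37454000-37454999 (6 CpGs, 24.2%) from chr18:37455000-37455999 (7 CpGs, 88.8%). The highest beta tile was chr18:37546000-37546999 with 4 CpGs, at 92.5%.

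In the gamma array 29 of 43 tiles were partly methylated. Its first zone, up to position 37926999, held 35 tiles, of which 28 were partly methylated, 6 were over 80% and 1 was under 20%. Its last zone, which began at 37965000 after the widest gap between its tiles, held 8 tiles, of which 5 were under 20%. The C-type genes Pcdhgc3, Pcdhgc4 and Pcdhgc5 come last in the gene order of this array. Tile chr18:37966000-37966999, the densest of the window with 32 CpGs, averaged 0.895% and did not exceed 2.15% in any library. Tile chr18:37975000-37975999, with 14 CpGs, averaged 0.455%. Between such tiles stood methylated ones: chr18:37981000-37981999, with 15 CpGs, averaged 85.9%. Within the first zone, the tile with most CpGs, chr18:37907000-37907999 with 27, averaged 48.6% and ranged from 35.3 to 58.2% over the libraries. Tile chr18:37845000-37845999 with 20 CpGs averaged 74.4%, and the highest gamma tile, chr18:37876000-37876999 with 4 CpGs, averaged 95.7%.

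The level changed sharply between neighbouring tiles. Of 25 pairs of adjacent window tiles, 9 (36%) differed by more than 30 points, against 15.9% of 22679 pairs outside the window. The median step was 19.8 points in the window and 2.64 points outside. Tiles with more CpGs tended to be less methylated: Spearman's rho between the number of CpGs of a tile and its level was -0.298 over the 82 window tiles and -0.468 over tiles outside. Tiles share libraries and fragments, so these values are descriptions. Among the 10 window tiles under 20%, chr18:37803000-37803999, with 31 CpGs and a mean of 0.382%, lay in the interval between the beta and gamma arrays.

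The mean level of the window did not separate leukemic from nonleukemic mice. Over the 589 CpGs covered in every library it was 50.8, 46.0 and 48.6% in leukemic double mutant libraries, against 50.5, 49.7 and 49.9% in nonleukemic double mutant libraries. It was 50.0, 49.7 and 50.5% in Tet2 knockout libraries and 49.5, 49.2 and 49.3% in Nras G12D libraries. The leukemic libraries held both the highest and the lowest value and overlapped each other group. The leukemic mean was 1.53 points below the nonleukemic one (48.5 ± 2.39% and 50.0 ± 0.40%, SD, n = 3 each; exact permutation test, two-sided, p = 0.4, adjusted p = 0.6 over 6 contrasts). With 3 libraries a group this test cannot go below 0.1. That smallest value was reached for the nonleukemic double mutant, 0.68 points above Nras G12D, and for the Tet2 knockout, 0.73 points above Nras G12D (exact p = 0.1, adjusted p = 0.3 for both). With a coverage minimum of 20 reads both pairs of groups overlapped, at 0.58 and 0.75 points. Outside the window the 3 leukemic libraries, at 31.4 ± 0.67%, lay below the nonleukemic libraries at 33.7 ± 0.06%, the Tet2 knockout libraries at 34.1 ± 0.26% and the Nras G12D libraries at 33.3 ± 0.20% (SD, n = 3 each).

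By segment, the leukemic group had the lowest mean in the alpha and beta arrays and in the interval between the beta and gamma arrays. In the alpha array leukemic double mutant libraries had 43.0, 41.5 and 42.6%, against 44.3, 43.8 and 42.5% in nonleukemic double mutant libraries. Tet2 knockout libraries had 45.1, 45.4 and 44.6% there and Nras G12D libraries 45, 43.6 and 43.8%. The leukemic group lay below both single mutants without overlap, by 2.65 points against the Tet2 knockout and by 1.73 points against Nras G12D, and it overlapped the nonleukemic group. With a coverage minimum of 20 reads the differences were 1.09 and 0.80 points, and the leukemic group then overlapped Nras G12D (exact permutation p = 0.3), as it did with strands kept apart. Weighted by coverage the leukemic group lay 4.04 points below Nras G12D, without overlap. The nonleukemic double mutant libraries also lay below the Tet2 knockout libraries in the alpha array without overlap, by 1.53 points. Weighted by coverage they lay 0.16 points above them, with overlap. In the interval between the beta and gamma arrays the leukemic libraries had 38.6, 37.8 and 37.5%, against 42.9, 41.6 and 41.7% in nonleukemic double mutant libraries. The Tet2 knockout libraries had 41.9, 42.8 and 44.8% and the Nras G12D libraries 42.1, 42.6 and 39.4% in this interval. Here the leukemic group was below each other group without overlap, by 4.08, 5.16 and 3.37 points. With a coverage minimum of 20 reads these differences were 2.55, 4.23 and 2.20 points, with overlap in the last, and weighted by coverage they were 1.54, 3.06 and 1.26 points, with overlap in all 3. At the settings first given, each of these exact p values was 0.1 and each adjusted p over the 30 tests of segments and contrasts was 0.43.

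In the beta and gamma arrays the leukemic libraries overlapped each other group. Beta array means were 69.6, 63.3 and 71.9% in leukemic double mutant libraries, against 70.6, 69.1 and 72.3% in nonleukemic double mutant libraries, 70, 71.2 and 70.1% in Tet2 knockout libraries and 69.9, 68.5 and 73.4% in Nras G12D libraries. Leukemic replicate 2 was the lowest of all, and without it the leukemic mean was 0.104 points above the nonleukemic one. Gamma array means were 50.2, 43.7 and 45.5% in leukemic double mutant libraries, against 47.9, 47.4 and 47.2% in nonleukemic double mutant libraries, 46.9, 46.0 and 47.7% in Tet2 knockout libraries and 46.2, 46.4 and 45.7% in Nras G12D libraries. Leukemic replicate 1 was the highest gamma value and leukemic replicates 2 and 3 the lowest, so the group spanned the other 9 libraries. The difference from Nras G12D, 0.36 points, became -1.56 points without leukemic replicate 1. The nonleukemic double mutant libraries lay above the Nras G12D libraries there without overlap, by 1.38 points (exact p = 0.1, adjusted p = 0.43), and by 0.74 points with overlap when weighted by coverage.

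**Figure D2:**
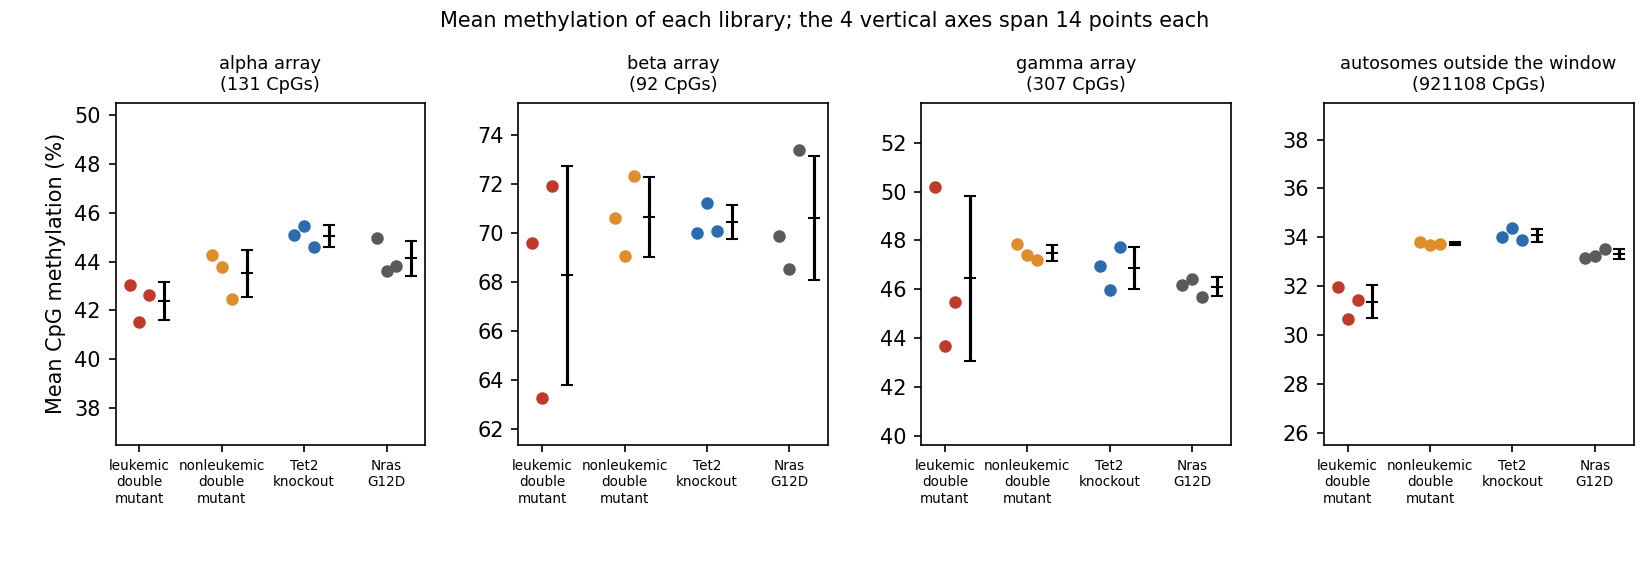
Mean CpG methylation (%) of each library in the alpha, beta and gamma arrays and on the autosomes outside the window, by group; bars are mean ± SD of 3 libraries, and each vertical axis spans 14 points. Leukemic libraries lie lowest outside the window, and are spread widely in the beta and gamma arrays.

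At partly methylated CpGs, leukemic libraries were lower than nonleukemic ones outside the window and overlapped them inside it. CpGs were classed by their mean over the 6 single-mutant libraries, which do not enter the comparison of leukemic with nonleukemic double mutants. At the 252 window CpGs between 20 and 80%, leukemic double mutant libraries had 56.9, 49.3 and 51.2%, against 53.8, 52.9 and 52.1% in nonleukemic double mutant libraries. At the 63020 such CpGs outside, leukemic libraries had 47.6, 44.9 and 46.1%, against 55.0, 54.7 and 54.2% in nonleukemic libraries. The leukemic libraries were thus 8.46 points lower outside the window, with no overlap, and 0.46 points lower in it, with overlap. The window value depended on single libraries: it was 2.69 points lower in leukemic libraries, without overlap, when leukemic replicate 1 was left out. The leukemic mean was 1.11 points above the nonleukemic one without leukemic replicate 2 and 0.20 points above it without leukemic replicate 3. Outside the window the leukemic libraries were 7.82 to 9.16 points lower with 1 library left out. In every leukemic library the window lay above the outside CpGs, by at least 4.45 points. In every nonleukemic double mutant library it lay below them, by at least 1.16 points. The difference between the 2 differences was 8.0 points. A test of it that was not planned gave an exact permutation p of 0.1 over libraries (two-sided). This is the smallest that 3 against 3 can give. The difference between the 2 differences was 10.3 points when CpGs were classed over all 12 libraries and 8.18 points over CpGs in tiles with at least 3. In Nras G12D libraries, which entered the classing, the window had 51.6, 50.8 and 51.0%, against 51.2, 51.4 and 50.9% outside. Each Tet2 knockout library, also used for the classing, had the window below the outside CpGs.

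At CpGs over 80% in the single mutants, the leukemic libraries were lower in the window too. The 169 window CpGs of this class had 87.0, 82.7 and 88.9% in leukemic double mutant libraries, against 89.9, 89.3 and 90.9% in nonleukemic double mutant libraries. The groups did not overlap, and the leukemic mean was lower by 3.86 points (2.12 points without leukemic replicate 2), against 5.77 points outside. The difference between the 2 was 1.91 points (exact permutation p = 0.2, also not planned). With CpGs classed over all 12 libraries the window groups overlapped, and the leukemic mean was 3.24 points lower. By segment, with classes from the single mutants, the groups lay apart between beta and gamma alone, where the leukemic mean was 7.65 points lower. They overlapped in the alpha, beta and gamma arrays, where the leukemic mean was lower by 5.09, 3.8 and 2.27 points. With 1 library left out the alpha difference ran from -8.71 points, without leukemic replicate 3, to -3.09 points, without leukemic replicate 1. At -8.71 points the groups did not overlap. The beta difference ran from -6.41 points, without leukemic replicate 3, to 0.44 points, without leukemic replicate 2. The gamma difference ran from -3.37 points, without leukemic replicate 1, to -1.12 points, without leukemic replicate 2, and was -1.25 points without nonleukemic replicate 3. At -3.37 points the groups did not overlap. At the partly methylated CpGs the leukemic minus nonleukemic difference was 0.70 points in the alpha array, -1.24 in the beta array and -0.29 in the gamma array, with overlap in each. With 1 library left out these ran from -1.13 to 2.65, from -2.29 to -0.41 and from -3.10 to 1.79 points. At -3.10 points, without leukemic replicate 1, the groups did not overlap. The 168 window CpGs under 20% averaged 4.52 ± 0.61% in leukemic libraries and 5.33 ± 0.37% in nonleukemic libraries (SD, n = 3 each).

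**Figure D3:**
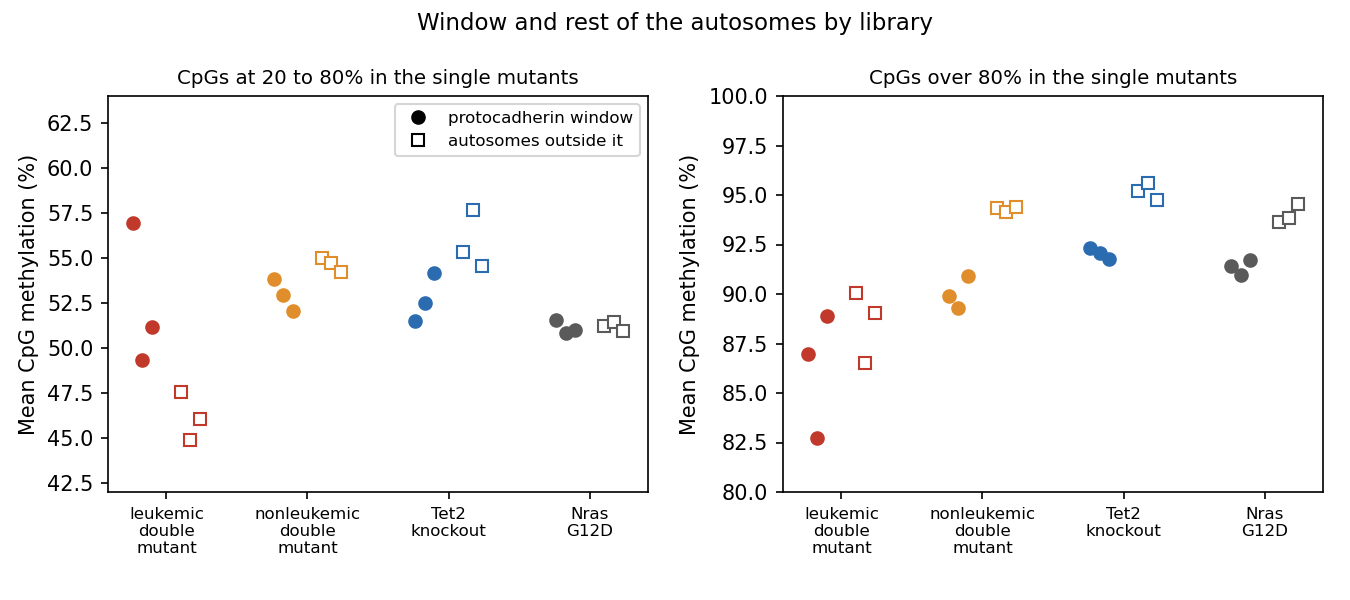
Mean CpG methylation (%) of each library in the window (filled circles) and on the autosomes outside it (open squares), by group, at CpGs that averaged 20 to 80% (left) or over 80% (right) in the 6 single-mutant libraries. At partly methylated CpGs the leukemic libraries lie at 44.9 to 47.6% outside the window and at 49.3 to 56.9% inside it; the axes start at 42 and 80%.

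Tests of single tiles found few differences between groups in the window. A tile was called at an adjusted p under 0.05 over all 105607 autosomal tiles (quasi-binomial model of read counts, Benjamini-Hochberg adjustment) with a difference of at least 10 points. For leukemic double mutant minus Tet2 knockout, 3 of 82 window tiles were called lower, beside 7.18% of all tiles, and 0 were called higher, beside 0.139%. At an unadjusted p under 0.05 that contrast had 15 window tiles lower and 1 higher, beside 25.1 and 2.47% of all tiles. For leukemic minus nonleukemic double mutant 0 window tiles were called, beside 3.74% lower and 0.0985% higher among all tiles. That model gave 16 window tiles lower and 0 higher at an unadjusted p under 0.05 in that contrast, beside 20.3 and 2.06% of all tiles, and the smallest adjusted p was 0.0532. For leukemic double mutant minus Nras G12D 0 window tiles were called, beside 1.9% lower and 0.0786% higher, with 7 lower and 1 higher at an unadjusted p under 0.05, beside 16.7 and 2.88% of all tiles. The contrasts among nonleukemic groups called 0 window tiles, beside at most 0.00189% of all tiles. In these, 2 tiles were lower and 1 higher for nonleukemic double mutant minus Tet2 knockout at an unadjusted p under 0.05, beside 2.29 and 0.963% of all tiles. The same count was 1 lower and 0 higher for nonleukemic double mutant minus Nras G12D, beside 0.775 and 2.08%. It was 0 lower and 4 higher for Tet2 knockout minus Nras G12D, beside 0.942 and 4.9%. limma on log ratios called 0 window tiles in each of the 6 contrasts, and the share of all tiles that it called is not given here.

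The median tile was lower in the leukemic group in the window and over all tiles alike. Leukemic double mutant libraries were lower than nonleukemic double mutant libraries in 54 of 82 window tiles and higher in 28. The share of all tiles that were lower is not given here. The median difference in this contrast was -1.61 points in the window, against -2.44 points over all tiles. Against the Tet2 knockout the median was -4.0 points in the window and -2.99 points over all tiles, and against Nras G12D it was -2.72 and -1.84 points. The contrasts with the leukemic group share its libraries and are not independent of each other. The leukemic and nonleukemic libraries did not overlap in 14 window tiles (17.1%), all lower in leukemic, beside 19.9% lower and 2.62% higher among all tiles. Against the Tet2 knockout 11 window tiles (13.4%) were lower without overlap and 0 higher, beside 19.4 and 2.14%. Against Nras G12D 13 (15.9%) were lower and 0 higher, beside 14.9 and 2.86%. Of the tiles apart in these 3 contrasts, 12, 9 and 12 had a value in all 6 libraries compared, and 10, 8 and 10 also lay apart over the CpGs read in every library.

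The 3 tiles called lower in leukemic double mutant than in Tet2 knockout libraries lay apart from each other in the window. Tile chr18:37813000-37813999, with 3 CpGs, lies so close to the bound set before the gamma array that its segment is uncertain. It had 56.9, 56.8 and 48.7% in leukemic double mutant libraries, against 83, 85.1 and 90% in Tet2 knockout libraries. The tile had 76.1, 80.1 and 71.1% in nonleukemic double mutant libraries and 78.1, 77.8 and 69.1% in Nras G12D libraries. The 3 leukemic libraries were the lowest of the 12, with a difference of -31.9 points from the Tet2 knockout (quasi-binomial adjusted p = 0.0122). At its middle CpG, chr18:37813621, leukemic libraries had 26.2, 17 and 0%, against 60, 58.3 and 78.6% in Tet2 knockout libraries. Without Tet2 knockout replicate 3 the tile's adjusted p was 0.0604, and limma gave 0.0551.

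Tile chr18:37981000-37981999, with 15 CpGs in the last zone of the gamma array, had 81.1, 82.6 and 75.9% in leukemic double mutant libraries, against 88.9, 92.8 and 91.2% in Tet2 knockout libraries. It had 87.9, 86.1 and 90.9% in nonleukemic double mutant libraries and 84.4, 83 and 86.4% in Nras G12D libraries. Its leukemic values were the lowest 3, 11.1 points below the Tet2 knockout (quasi-binomial adjusted p = 0.0132). Leukemic replicate 3 had reads at 13 of its CpGs. The difference was 9.11 points without that replicate and 9.85 points over CpGs read in every library, short of the 10 points set. Over those CpGs the leukemic libraries overlapped Nras G12D. Tile chr18:37107000-37107999, with 9 CpGs in the alpha array, had 71.1, 69.1 and 67.0% in leukemic double mutant libraries, against 76.5, 81.6 and 81.3% in Tet2 knockout libraries. It had 75.4, 80.3 and 76.2% in nonleukemic double mutant libraries and 71.2, 75.4 and 74.5% in Nras G12D libraries. The leukemic values were again the lowest, by 10.7 points against the Tet2 knockout (quasi-binomial adjusted p = 0.0297). All 3 calls were lost when the model was fitted to the 6 libraries compared (adjusted p 0.122 to 0.156), with limma, or, for 2 of the 3, without Tet2 knockout replicate 2. Tile chr18:37107000-37107999 also lost its call without leukemic replicate 3, at 9.70 points, or Tet2 knockout replicate 3, at 9.97 points.

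**Figure D4:**
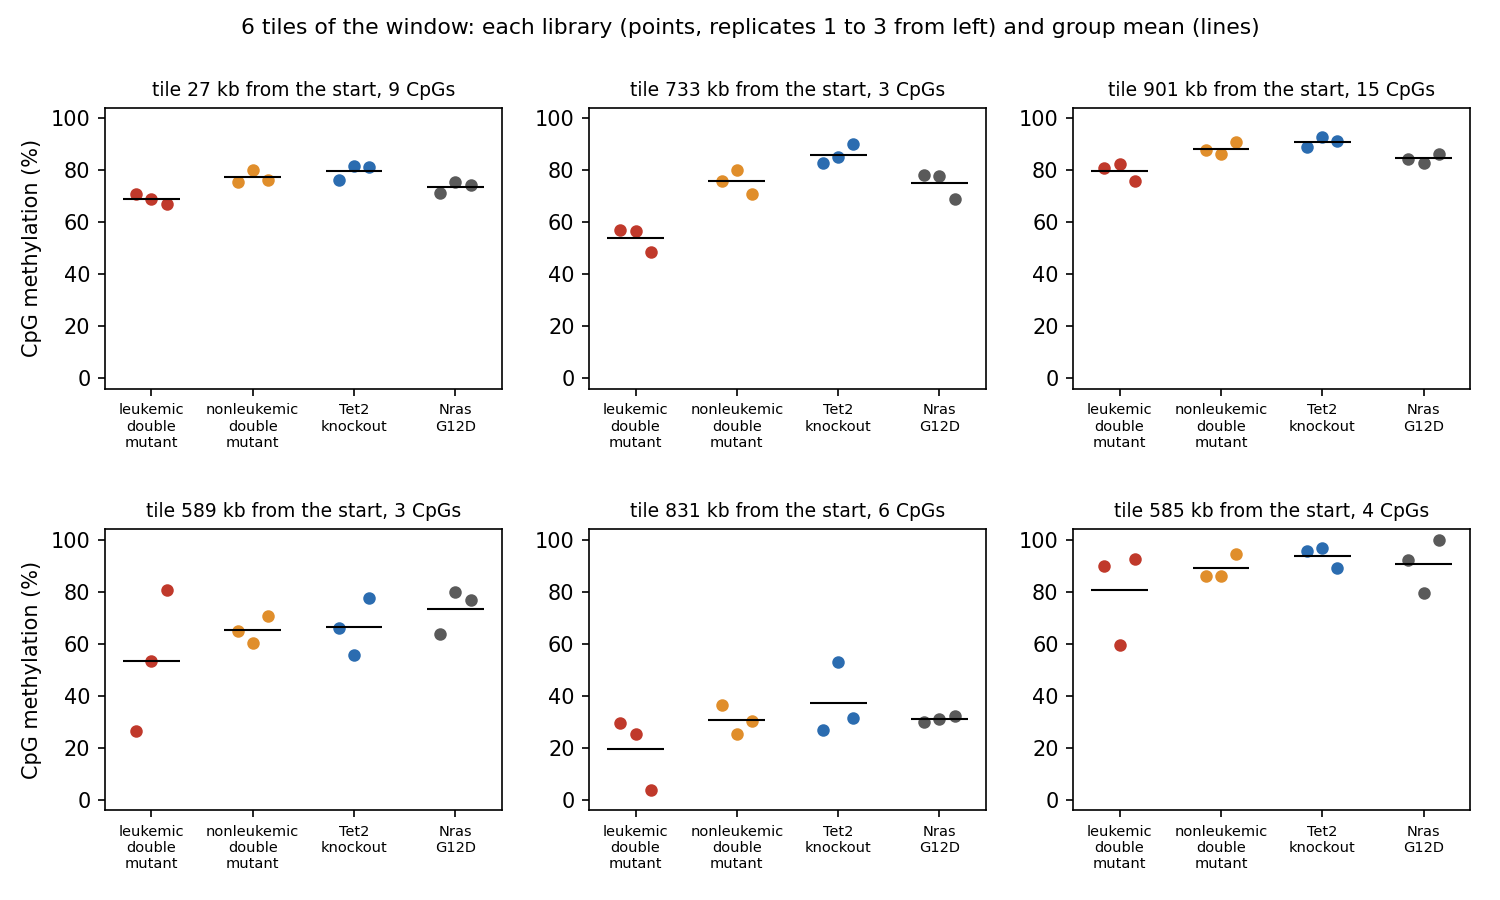
CpG methylation (%) in 6 window tiles, by group: points are libraries, replicates 1 to 3 from left to right, and lines are group means. The upper row holds the 3 tiles called lower in leukemic double mutant than in Tet2 knockout libraries; the lower row holds the 3 tiles, of those with every CpG read in all libraries, in which 1 library stood farthest from the others.

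No single CpG was called in any contrast. The rule asked for an adjusted p under 0.05 over all autosomal CpGs and a difference of at least 25 points, which few CpGs met anywhere. The background was 0.00821% lower and 0.000778% higher for leukemic minus nonleukemic double mutant, 0.0333 and 0.00095% for leukemic double mutant minus Tet2 knockout, and 0% for leukemic double mutant minus Nras G12D. It was 0% for nonleukemic double mutant minus Tet2 knockout, and 0.000346% lower and 0% higher for each of the other 2 contrasts. At an unadjusted p under 0.05 (quasi-binomial model), leukemic libraries were lower than nonleukemic double mutant libraries at 52 CpGs and higher at 29, beside 8.85 and 3.23% of all CpGs. They were lower than Tet2 knockout libraries at 54 and higher at 33, beside 9.7 and 2.9%, and lower than Nras G12D libraries at 51 and higher at 33, beside 7.75 and 3.5%. For nonleukemic double mutant minus Tet2 knockout 20 were lower and 16 higher, beside 2.93 and 2.42%. For nonleukemic double mutant minus Nras G12D 17 were lower and 14 higher, beside 2.31 and 3.12%. For Tet2 knockout minus Nras G12D 16 were lower and 20 higher, beside 2.17 and 3.67%. The smallest adjusted p was 0.101. limma also called 0 window CpGs in each contrast, again without a share over all CpGs to set beside it.

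What set libraries apart in the window was how far single CpGs lay from the level of the others. A CpG was counted as extreme in a library when it was under 10% or over 90% there and between 20 and 80% in the mean of the other 11. Leukemic replicates 1, 2 and 3 had extreme values at 27.2, 11.1 and 39.3% of such CpGs, against 3.60, 5.16 and 2.36% in nonleukemic double mutant replicates 1, 2 and 3. Tet2 knockout replicates 1, 2 and 3 had 5.93, 24.7 and 7.45%, and Nras G12D replicates 1, 2 and 3 had 6.77, 4.67 and 17.8%. The leukemic libraries lay above the nonleukemic double mutant libraries without overlap and overlapped both single-mutant groups, in each of which 1 library stood apart. On the autosomes outside the window leukemic replicates 1 and 3, Tet2 knockout replicate 2 and Nras G12D replicate 3 were again the highest. Shares there were 25.7, 10.9 and 34.5% in leukemic libraries and 9.86, 10.1 and 9.75% in nonleukemic double mutant libraries. Outside shares were 13.1, 35.3 and 17.6% in Tet2 knockout libraries and 9.29, 8.40 and 22.3% in Nras G12D libraries. Leukemic replicate 2 lay below each Tet2 knockout library there. The window was below the outside in all 9 nonleukemic libraries and above it in the 3 leukemic libraries. For leukemic replicate 2 this order depended on the setting: after thinning to 10 reads per CpG it had 9.88% in the window and 11.5% outside. With partly methylated taken as 30 to 70%, leukemic replicate 2 had 7.45% in the window and 7.68% outside, and Nras G12D replicate 3 had 14.7% in the window and 14.6% outside.

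The 5 libraries with the highest window shares were also the highest 5 after reads were thinned. The median coverage of these CpGs was 92, 83 and 82 reads in the leukemic libraries, 56 reads in Tet2 knockout replicate 2 and 64 reads in Nras G12D replicate 3. After each CpG was thinned to 10 reads, the leukemic shares were 27.2, 9.88 and 35.8%, those of Tet2 knockout replicate 2 and Nras G12D replicate 3 were 26.3 and 18.2%, and the other 7 libraries had 4.28 to 9.16%. Low shares moved most in proportion: nonleukemic double mutant replicates 1 and 3 had 7.2 and 4.72% after thinning.

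**Figure D5:**
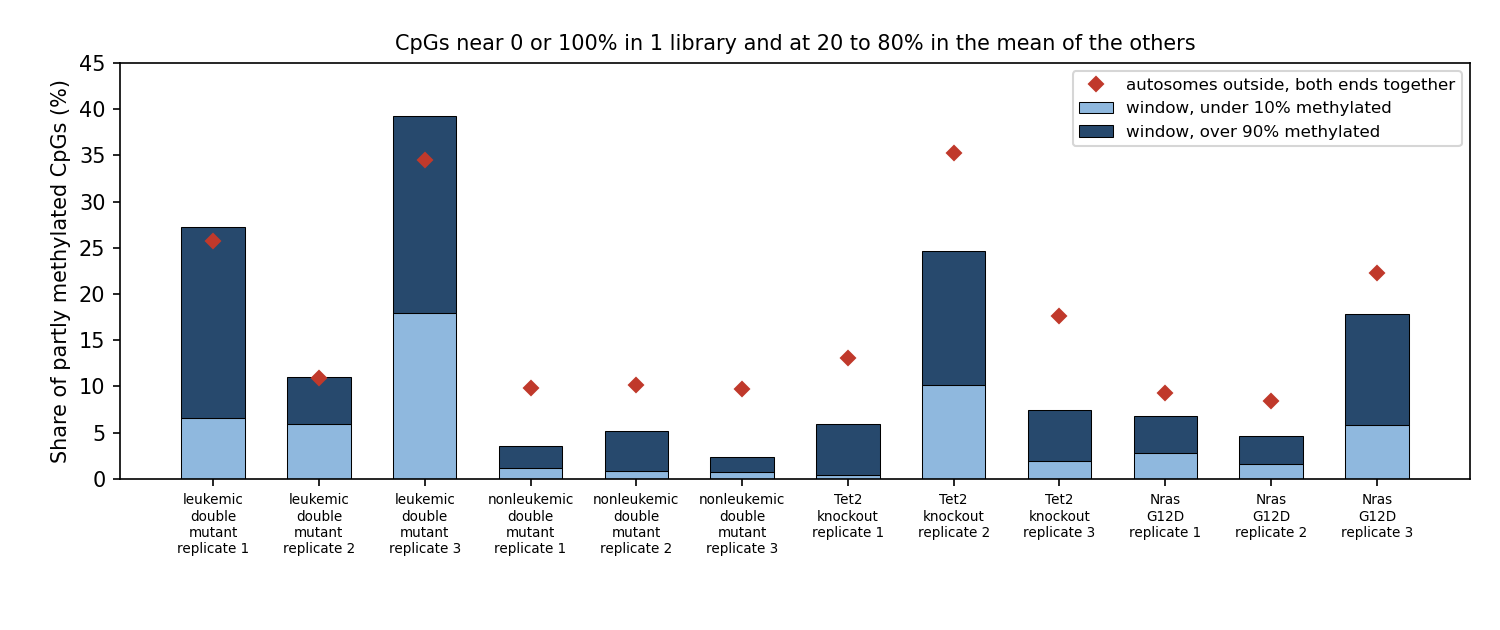
Share (%) of partly methylated CpGs that were under 10% (light) or over 90% (dark) methylated in the library named, in the window (bars from 0), with the share of both together on the autosomes outside (diamonds). Leukemic replicates 3 and 1, Tet2 knockout replicate 2 and Nras G12D replicate 3 had the highest window shares.

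The extreme values went both ways. Leukemic replicate 3 had 46 CpGs under 10% and 55 over 90% of 257, leukemic replicate 1 had 17 and 53, Tet2 knockout replicate 2 had 26 and 37 of 255, and Nras G12D replicate 3 had 15 and 31 of 258. Tiles that held extreme values more often held them in a single direction than in both, though a tile with 1 extreme CpG can only count as a single direction. Of the 74 tiles with a partly methylated CpG, leukemic replicate 3 had 17 with extreme values under 10% alone and 20 with extreme values over 90% alone. It had 11 tiles with both and 26 with neither. Leukemic replicate 1 had 8, 28, 5 and 33 such tiles, in the same order. In the gamma array 42.4% of 165 CpGs were extreme in leukemic replicate 3.

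Tile chr18:37911000-37911999, with 6 CpGs in the gamma array, shows both directions. It had 29.6, 25.3 and 3.85% in leukemic double mutant libraries, against 36.5, 25.1 and 30.1% in nonleukemic double mutant libraries, 26.8, 52.9 and 31.3% in Tet2 knockout libraries and 29.8, 30.8 and 32.2% in Nras G12D libraries. Leukemic replicate 3 lay 21.3 points below all others and Tet2 knockout replicate 2 lay 16.4 points above. At CpG chr18:37911469 leukemic replicate 3 had 0% of 62 reads and Tet2 knockout replicate 2 had 94.8% of 134 reads. Tile chr18:37840000-37840999, with 3 CpGs, had 45.3, 3.30 and 0% in leukemic libraries, against 48.6, 45.7 and 49.6% in nonleukemic libraries. It rested on as few as 34 reads in a library.

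Other tiles were set apart by other leukemic libraries. Tile chr18:37669000-37669999, with 3 CpGs in the beta array, had 26.5, 53.2 and 80.4% in leukemic libraries, against 64.8, 60.1 and 70.8% in nonleukemic double mutant libraries, so that the leukemic group held both its lowest and its highest value. Tile chr18:37665000-37665999, with 4 CpGs, had 89.9, 59.4 and 92.7% in leukemic libraries, against 86.1, 86.1 and 94.5% in nonleukemic double mutant libraries. Tile chr18:37903000-37903999, with 6 CpGs in the gamma array, had 80.2, 61.6 and 33.2% in leukemic libraries, against 63.5, 55.0 and 63.5% in nonleukemic double mutant libraries. In 21 cases a library lay at least 10 points beyond all others in a tile, and 11 of them were leukemic libraries and 7 Tet2 knockout libraries. Over CpGs read in every library, with at least 3 of them in the tile, 17 of the 21 remained at least 10 points beyond. Of these 17, 8 were leukemic, 6 Tet2 knockout and 3 nonleukemic double mutant libraries. The share of such cases over all autosomal tiles is not given here, so these counts describe the window alone.

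The tiles with the largest range of group means in each array had no calls between groups. In the alpha array, chr18:37114000-37114999 with 8 CpGs had 61.3, 61.2 and 46.9% in leukemic double mutant libraries, against 58.3, 52.6 and 42.6% in nonleukemic double mutant libraries, 67.2, 61.0 and 61.8% in Tet2 knockout libraries and 70.1, 62.6 and 61.8% in Nras G12D libraries. Replicate 3 was the lowest library of both double mutant groups there. Tile chr18:37344000-37344999, with 5 CpGs, had 21.5, 29.8 and 21.4% in leukemic libraries, against 33.8, 41.5 and 38.7% in nonleukemic double mutant libraries. Over the 3 CpGs read in every library the groups overlapped, at 19.6, 37.2 and 18.5% in leukemic libraries and 31.7, 36.8 and 36.5% in nonleukemic double mutant libraries. Tet2 knockout libraries had 35.8, 53.6 and 34.9% in this tile and Nras G12D libraries 26.9, 34.9 and 32.2%.

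In some beta and gamma tiles of this kind a single library stood far from its group. In the beta array, chr18:37445000-37445999 with 10 CpGs had 74.3, 42.2 and 50.0% in leukemic libraries, against 51.4, 41.7 and 59.5% in nonleukemic double mutant libraries. It had 48.8, 82.1 and 71.3% in Tet2 knockout libraries, of which replicate 2 had reads at 3 of the 10 CpGs. Tile chr18:37602000-37602999, with 5 CpGs, was at 100% in Tet2 knockout replicate 2, with reads at 3 CpGs, and at 56.9 to 86.1% in the other libraries. In the gamma array, chr18:37849000-37849999 with 5 CpGs had 22.7, 32.9 and 30.8% in leukemic libraries, against 36.7, 50.2 and 57.5% in nonleukemic double mutant libraries, without overlap. Tile chr18:37979000-37979999, with 3 CpGs, had 73.2 and 76.3% in leukemic replicates 1 and 2, against 94.3, 89.0 and 91.2% in nonleukemic double mutant libraries, and leukemic replicate 3 had no reads there.

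A tile value depends on which CpGs were read. Tile chr18:37250000-37250999 stood at 98.5% in leukemic replicate 3 and between 43.1 and 55.1% in the other 11 libraries. In leukemic replicate 3 this value came from 67 reads at 1 of its 7 CpGs, chr18:37250052, which had 59.4 to 84.5% in the other libraries. In 9 of the 82 tiles a library had reads at fewer than 3 CpGs, and 4 tiles had none in a library.

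In partly methylated tiles the spread within groups put the 4 groups in the same order as the extreme values did. Both describe the same libraries and are not independent. Over the 50 partly methylated window tiles with a value in every library, the median SD within a group was 8.10 points in leukemic double mutant, 4.63 in nonleukemic double mutant, 7.04 in Tet2 knockout and 5.17 in Nras G12D libraries. Outside the window the medians were 10.1, 4.95, 7.74 and 6.23 points in the same groups. Tiles over 80% were more variable in the window than outside in leukemic libraries, at 8.51 and 6.23 points, and in nonleukemic double mutant libraries, at 3.47 and 2.18 points. In Tet2 knockout libraries these medians were 4.13 and 2.84 points, and in Nras G12D libraries 2.75 and 2.99 points. Window tiles under 20% had another order, with the leukemic median lowest, at 0.63 points, and the Nras G12D median highest, at 0.96 points. Over all 12 libraries the range of a tile had a median of 5.0 points in tiles under 20%, 28.6 points in partly methylated tiles and 19.7 points in tiles over 80%.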

How the data were processed

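The deposited tables list, per library, a coverage count and the percent of C and of T for each CpG cytosine with at least 10 reads. Reads were aligned to mm9 with Bismark, per the submitters' processing notes, and trimming and calling settings are not given in the sources used here. Methylated read counts were rebuilt from the deposited percent and count values, and both strands of a CpG were summed. Tiles were 1 kb long, starting at multiples of 1000, with at least 3 CpGs. Tiles and CpGs were tested on all autosomes with a quasi-binomial model of group on 12 libraries, its dispersion moderated as in limma 3.58.1 and floored at 1. The model was written in Python 3.11.15 and tested on simulated data. Named tiles were those called, and per array the 3 with most CpGs, the highest, the lowest and the 3 with the largest range of group means; others named were chosen after their values were seen. The members, array bounds and classes were chosen with earlier results of these data known. Alternatives covered coverage, weighting, strands, the minimum of CpGs per tile, tile shift, thresholds, limma, libraries left out and a replicate block. The tile length was not varied. Intervals between arrays hold 12 and 62 CpGs. No sequence is printed, since no mm9 genome was used here.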

Additional observations from a re-analysis of the deposited data

How the results depend on the processing

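Window mean differences kept their direction under all alternatives except libraries left out, where leukemic minus Nras G12D ran from -2.08 to 0.37 points and nonleukemic double mutant minus Tet2 knockout from -0.45 to 0.17. No exact test could pass the threshold, so an unchanged test outcome says nothing about stability, and only the sign and size of the differences are described. Of 150 array differences under other settings, 125 kept their sign. With a coverage minimum of 20 the sign turned in the alpha-beta interval (leukemic minus nonleukemic 5.60, nonleukemic minus Tet2 knockout -3.45, nonleukemic minus Nras G12D -4.98), in the beta array (nonleukemic minus Tet2 knockout -0.0241, minus Nras G12D -0.198) and in the gamma array (leukemic minus Nras G12D -0.0149). Weighted by coverage it turned in the alpha array (nonleukemic minus Tet2 knockout 0.16, Tet2 knockout minus Nras G12D -0.61) and the alpha-beta interval (leukemic minus the 3 others 0.58, -2.20 and -11.0, nonleukemic minus Tet2 knockout -2.78 and minus Nras G12D -11.6). It also turned in the beta array (nonleukemic minus Tet2 knockout -1.67, Tet2 knockout minus Nras G12D 1.68) and the gamma array (leukemic minus Nras G12D -0.99, nonleukemic minus Tet2 knockout -1.56). Without leukemic replicate 3 and Tet2 knockout replicate 2 together, a setting added after the data were seen, it turned in the alpha-beta interval (leukemic minus Tet2 knockout -3.79 and minus Nras G12D -0.83, nonleukemic minus Tet2 knockout -1.18, Tet2 knockout minus Nras G12D 2.95). It then also turned in the beta array (nonleukemic minus Tet2 knockout -0.71 and minus Nras G12D -0.30, Tet2 knockout minus Nras G12D 0.41) and the gamma array (nonleukemic minus Tet2 knockout -0.00337). The cause of these turns was not tested.

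With 1 library left out, the alpha-beta interval ran from -2.54 to 3.10 (leukemic minus Tet2 knockout), -0.83 to 0.70 (leukemic minus Nras G12D), -1.18 to 4.46 (nonleukemic minus Tet2 knockout) and -2.69 to 2.95 (Tet2 knockout minus Nras G12D). The beta array ran from -4.27 to 0.10 (leukemic minus nonleukemic), -4.07 to 0.32 (leukemic minus Tet2 knockout), -4.20 to 0.17 (leukemic minus Nras G12D), -0.72 to 1.02 (nonleukemic minus Tet2 knockout), -0.98 to 1.55 (nonleukemic minus Nras G12D) and -1.20 to 1.48 (Tet2 knockout minus Nras G12D). The beta-gamma interval ran from -0.29 to 1.35 (nonleukemic minus Nras G12D). The gamma array ran from -2.97 to 0.37 (leukemic minus nonleukemic), -2.29 to 0.98 (leukemic minus Tet2 knockout) and -1.56 to 1.75 (leukemic minus Nras G12D).

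Shares of all tiles called are not given here for the alternatives, so the counts below describe the window alone. Window tiles called for leukemic minus Tet2 knockout numbered 3 and became 5 with tiles shifted by 500 bp, 1 at 25 points, 0 with limma and 0 on the 6 libraries compared. With 1 library left out they ran from 1 to 6: 6 without leukemic replicate 1, and 1 without Tet2 knockout replicate 2 or 3. Tiles called for leukemic minus nonleukemic, 0 otherwise, were 1 with a coverage minimum of 20, 1 with tiles of at least 1 CpG, 2 with shifted tiles and 0 to 3 with 1 library left out. For leukemic minus Nras G12D, 0 otherwise, they were 1, at a coverage minimum of 20 and with shifted tiles, 3 without leukemic replicate 3 and Tet2 knockout replicate 2, and 0 to 3 with 1 library left out. Same-numbered replicates did not deviate together over all tiles (correlations of -0.0103 to 0.0246), and over window tiles the correlations ran from -0.257 to 0.259. These values cannot decide whether the numbers pair the libraries, since a pairing need not show in them. The replicate block gave 5 tiles and 1 CpG called for leukemic minus Tet2 knockout. The difference of 8.0 points between the window and the outside at partly methylated CpGs ran from 6.26 to 8.94 with 1 library left out. Class means without single libraries and tile values over the CpGs read in every library were added after the data were seen.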
